A study of Homo sapiens with 6 samples.

Results

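The 8 RNAs described here are transcribed at genes of the extracellular matrix, of cell adhesion and of the contractile cytoskeleton, from the DNA strand opposite the coding gene. They were taken by name, COL4A2-AS1, COL4A2-AS2, COL18A1-AS1, LOXL1-AS1, LOXL2-AS1, ADAMTSL4-AS1, ITGB1-DT and ACTA2-AS1, from a table of 35036 mostly non-coding genes, and each name matched 1 row. The choice was made with earlier results of these data known. The suffix AS marks an RNA antisense to the gene in its name, and DT a divergent transcript, which starts beside the promoter of the coding gene and runs the other way. RNA was counted in 6 libraries of the human osteosarcoma line U-2OS: 3 SiSFPQ libraries, from cells transfected with an siRNA against SFPQ, and 3 SiCtrl libraries, from cells given a control siRNA. All 6 were treated with actinomycin D, so both groups share the drug, of which the sources used here give neither dose nor duration. The labels do not say that libraries of a group came from separate cultures, so p-values measure only the spread between these samples, which may be technical.

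SFPQ is a nuclear RNA-binding protein found in paraspeckles and involved in transcription and splicing, and actinomycin D binds DNA and blocks transcription. Matrix genes such as those studied here encode the scaffold around cells: collagen IV forms the sheet of basement membranes, collagen XVIII sits in the same membranes, and lysyl oxidases cross-link collagen and elastin. Osteosarcoma derives from bone-forming cells, whose normal work is to lay down the matrix of bone. Antisense and divergent RNAs can share a promoter or exons with the coding gene, so their level and that of the coding RNA are hard to separate unless reads are assigned by strand.

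The table held 1298658 to 1599566 counts in SiSFPQ libraries and 1385532 to 1533974 in SiCtrl libraries. No value of SFPQ was used here, so its depletion went unchecked and group membership is that of the labels. The libraries were made with a stranded kit, and whether the counting used strand is not stated. In 13 pairs, rows of over 300 counts on opposite strands shared more than 80% of both spans. Of these, 2 pairs had totals within 1% of each other: MALAT1 and TALAM1, with 72563 and 72552 counts, and ENSG00000297076 and ENSG00000297093, with 8001 and 7991. In the other 11 pairs the totals differed by 6.80% to 81.7%, and the exons they share were not compared. Near-equal totals of the first kind are what counting without strand gives, so counts of an antisense RNA could include reads of the coding gene where exons overlap. The coding genes COL4A2, COL18A1, LOXL1, LOXL2, ADAMTSL4, ITGB1 and ACTA2 were not analysed here. How much of each level or change below came from coding reads was not tested.

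The share of each RNA that lies over exons of its coding partner was read from GENCODE release 29 on GRCh38. COL4A2-AS1 (ENSG00000232814, chr13:110502575-110508179, minus strand) has 540 exonic bases, of which 81 lie over coding sequence of COL4A2, the gene of the collagen IV alpha 2 chain. COL4A2-AS2 (ENSG00000224821, chr13:110456396-110463287, minus strand) has 1522 exonic bases and overlaps COL4A2 coding sequence by 14. COL18A1-AS1 (ENSG00000183535, chr21:45419716-45425070, minus strand) overlaps COL18A1, but its 3455 exonic bases share none with exons of that gene. These RNAs of the collagen genes thus range from no exonic overlap with their partner to 15.0% of the listed length.

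LOXL1-AS1 (ENSG00000261801, chr15:73898471-73928296, minus strand) runs across the start of LOXL1, a lysyl oxidase-like enzyme of elastic fibres, and reaches 27518 bases beyond the gene. At least 335 of its 6678 listed bases lie over LOXL1 exons and 232 over coding sequence. LOXL2-AS1 (ENSG00000253837, chr8:23336171-23366125, plus strand) lies wholly within LOXL2, a collagen IV cross-linking enzyme, and at least 178 of its 4834 bases cover coding sequence. Both counts are lower limits, since GENCODE 29 holds only 4221 and 4798 exonic bases for these 2 RNAs.

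ADAMTSL4-AS1 (ENSG00000203804, chr1:150560202-150562115, minus strand) is listed as 1 exon of 1914 bases. Its 736 bases over exons of ADAMTSL4, a secreted protein of fibrillin microfibrils, are 38.5% of its length, the highest share of the 8, and none is coding. ITGB1-DT (ENSG00000229656, chr10:32958390-33134921, plus strand) starts 160 bases upstream of the RefSeq start of ITGB1, the integrin beta 1 chain that pairs with many alpha chains to bind matrix. At least 42 of its 7775 bases lie over ITGB1 exons. ACTA2-AS1 (ENSG00000180139, chr10:88932390-88940820, plus strand) crosses the end of ACTA2, the smooth muscle actin gene, with 516 of 3183 bases over exons and 364 over coding sequence.

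**Figure D1:**
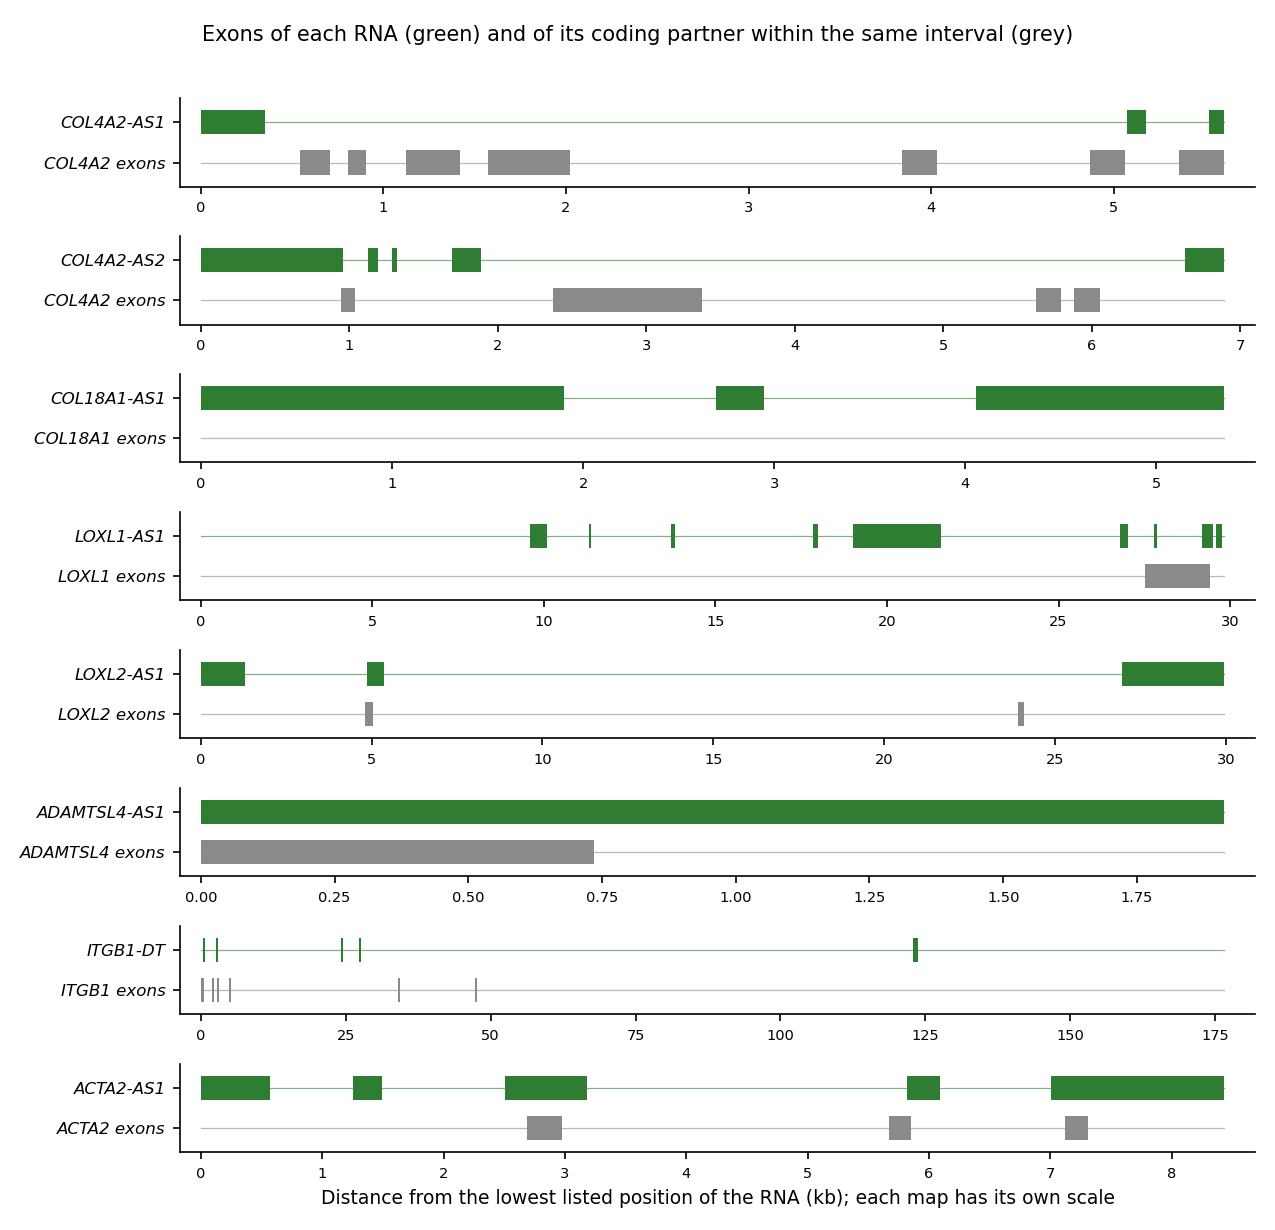
Exons of each RNA (green, upper track) and exons of any annotated transcript of its coding partner within the same interval (grey, lower track), against the distance in kb from the lowest listed position of the RNA, with a separate scale per map. COL18A1-AS1 meets no COL18A1 exon, while 736 of the 1914 bases of ADAMTSL4-AS1 lie over ADAMTSL4.

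The sequences below show, for 4 of the RNAs with coding overlap, a stretch in which a read without strand could come from either gene. LOXL2-AS1, with at least 178 bases over coding sequence, is not shown. Each is spliced RNA sequence written as DNA from GENCODE 29 (GRCh38), 5′ to 3′ on the strand of the antisense RNA. Capitals mark bases over coding sequence of the partner, at chr13:110508099-110508179, chr13:110457343-110457356, chr15:73927654-73927786 and chr10:88939507-88939698 in the order shown, and lower case the nearest bases of the same transcript outside it. The reverse complement of each run of capitals was found in at least 1 annotated transcript of the partner.
COL4A2-AS1: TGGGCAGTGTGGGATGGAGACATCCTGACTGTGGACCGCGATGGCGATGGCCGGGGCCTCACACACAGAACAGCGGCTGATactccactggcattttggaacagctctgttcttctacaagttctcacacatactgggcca
COL4A2-AS2: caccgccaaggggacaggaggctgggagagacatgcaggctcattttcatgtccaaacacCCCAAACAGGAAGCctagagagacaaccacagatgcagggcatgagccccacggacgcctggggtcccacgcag
LOXL1-AS1: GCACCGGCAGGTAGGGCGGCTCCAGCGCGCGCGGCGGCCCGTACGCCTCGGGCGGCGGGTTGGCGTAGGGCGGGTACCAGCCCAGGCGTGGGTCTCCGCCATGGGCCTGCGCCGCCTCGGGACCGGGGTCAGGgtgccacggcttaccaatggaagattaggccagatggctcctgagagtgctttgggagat
ACTA2-AS1: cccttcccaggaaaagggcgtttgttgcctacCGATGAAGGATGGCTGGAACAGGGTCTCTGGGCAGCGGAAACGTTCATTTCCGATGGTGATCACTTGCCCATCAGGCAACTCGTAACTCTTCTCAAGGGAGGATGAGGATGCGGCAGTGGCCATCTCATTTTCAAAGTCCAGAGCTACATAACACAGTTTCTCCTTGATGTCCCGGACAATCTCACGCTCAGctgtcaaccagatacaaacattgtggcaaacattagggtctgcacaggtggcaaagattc
The first exon of COL4A2-AS1 is capitals throughout, 81 bases at the 5′ end, whereas in COL4A2-AS2 the overlap is a run of 14 bases inside the transcript.

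Of the 8 RNAs, 5 fell in SiSFPQ cells, 2 did not pass the test and 1 had too few counts to pass the filter on low counts. A fall was called by edgeR's quasi-likelihood test at a Benjamini-Hochberg adjusted p under 0.05 over all 6325 tested rows, of which 24.0% were lower in SiSFPQ by the same rule, 24.5% higher and 48.4% either. The 5 that fell were COL4A2-AS1, COL4A2-AS2, LOXL1-AS1, LOXL2-AS1 and ADAMTSL4-AS1, at the loci of basement membrane collagen, of the collagen and elastin cross-linking enzymes and of a microfibril protein. ITGB1-DT, at the integrin gene, and ACTA2-AS1, at the actin gene, were the 2 that did not pass. Levels below are in CPM, counts scaled to the size of each library in this table after TMM normalisation.

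At the collagen IV gene, COL4A2-AS1 had 158, 135 and 153 CPM in SiSFPQ libraries, against 303, 264 and 260 CPM in SiCtrl libraries. Every SiSFPQ library was below every SiCtrl library, a separation that held for 26.9% of all tested rows, against 27.1% with every SiSFPQ library above. Means were 149 ± 12.4 CPM in SiSFPQ and 276 ± 23.9 CPM in SiCtrl (SD, n = 3 each), and SiSFPQ over SiCtrl was -0.90 ± 0.08 on the log2 scale (SE, edgeR, adjusted p = 1.3e-26). The level in SiSFPQ was 53.7% of that in SiCtrl.

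COL4A2-AS2, at the same gene, had 28.3, 38.6 and 44.0 CPM in SiSFPQ libraries, against 72.8, 64.5 and 92.0 CPM in SiCtrl libraries. These groups did not overlap either, with the lowest value in SiSFPQ replicate 1 and the highest in SiCtrl replicate 3. The log2 fold change was -1.02 ± 0.14 (SE, edgeR, adjusted p = 6.7e-12), the most negative of the 7 tested, and over the 9 pairs of single libraries it ran from -1.70 to -0.55.

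The 2 RNAs at COL4A2 were then compared within each library. The log2 ratio of COL4A2-AS1 to COL4A2-AS2, with 0.5 CPM added to each, was 2.46, 1.79 and 1.79 in SiSFPQ libraries and 2.05, 2.02 and 1.50 in SiCtrl libraries. The groups overlapped, and the difference of means was 0.16 (two-sided exact permutation p = 0.6; groups of 3 cannot go below 0.1). A difference in fold change between the pair was thus not shown, and its sign turned without SiSFPQ replicate 1 (-0.07) or SiCtrl replicate 3 (-0.02).

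COL18A1-AS1, at the collagen XVIII gene, had the fewest counts of the 8. There were 2, 0 and 4 counts in SiSFPQ libraries and 0, 0 and 2 counts in SiCtrl libraries. The ratio of summed counts per total was 2.96 with a 95% counting interval of 0.529 to 30.0, which covers counting error only, so no difference was detectable at this depth.

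At the cross-linking enzymes, LOXL1-AS1, known from human genetics for variants linked to exfoliation syndrome, had 189, 219 and 221 CPM in SiSFPQ libraries, against 291, 320 and 322 CPM in SiCtrl libraries. The lowest library of each group was its replicate 1, and the groups did not overlap. The log2 fold change was -0.56 ± 0.07 (SE, edgeR, adjusted p = 5.5e-13), so that SiSFPQ cells held 67.7% of the SiCtrl level, the smallest of the 5 falls. LOXL2-AS1 had 160, 151 and 153 CPM in SiSFPQ libraries, against 265, 269 and 263 CPM in SiCtrl libraries. Libraries of a group lay close together, with means of 154 ± 4.68 CPM in SiSFPQ and 266 ± 2.89 CPM in SiCtrl (SD, n = 3 each). Its log2 fold change was -0.79 ± 0.08 (SE, edgeR, adjusted p = 9.3e-21), and the 9 pairs of single libraries gave -0.84 to -0.72, the narrowest range of the 7.

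ADAMTSL4-AS1 had 180, 171 and 172 CPM in SiSFPQ libraries, against 308, 283 and 276 CPM in SiCtrl libraries. The groups did not overlap, and the log2 fold change was -0.73 ± 0.08 (SE, edgeR, adjusted p = 2.2e-19). A row on the other strand, ENSG00000289457 (chr1:150561111-150563787), shares 1005 bases of span with ADAMTSL4-AS1 and had 4, 11 and 12 counts in SiSFPQ libraries and 14, 7 and 17 counts in SiCtrl libraries. ADAMTSL4-AS1 had 236 to 275 counts in SiSFPQ and 369 to 432 counts in SiCtrl. The other 909 bases of ADAMTSL4-AS1 contain the 736 over ADAMTSL4 exons. Where its reads lay, and how reads in the shared bases were assigned, was not tested. ADAMTSL4-AS2, a further antisense RNA of the gene that was named after its values were seen, fell to 40.1 ± 3.64 CPM in SiSFPQ, against 65.9 ± 5.76 CPM in SiCtrl (SD, n = 3 each; log2 fold change -0.71, edgeR, adjusted p = 5.6e-06).

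ITGB1-DT had 27.5, 22.4 and 20.7 CPM in SiSFPQ libraries and 21.4, 19.0 and 20.9 CPM in SiCtrl libraries. The groups overlapped, with SiSFPQ replicate 1 above the rest. The log2 fold change was 0.19 with a 95% interval of -0.24 to 0.62 (edgeR, adjusted p = 0.50). The table lists 4 more rows that overlap the span of ITGB1-DT, ENSG00000306920, IATPR, ENSG00000306900 and ENSG00000306881, each with 9 counts or fewer over all 6 libraries.

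ACTA2-AS1 had 26.0, 30.5 and 25.9 CPM in SiSFPQ libraries and 32.1, 27.9 and 19.5 CPM in SiCtrl libraries, so the SiSFPQ values lay inside the SiCtrl range. The log2 fold change was 0.05 with a 95% interval of -0.34 to 0.44 (edgeR, adjusted p = 0.85), and it was -0.13 without SiCtrl replicate 3 and -0.04 without SiSFPQ replicate 2. The standard errors of ITGB1-DT and ACTA2-AS1, 0.22 and 0.20, were larger than those of the 5 RNAs that fell, 0.07 to 0.14, and they had fewer counts. A missed threshold does not show that either was unchanged, but both intervals lie above the fold change of every one of the 5, of which LOXL1-AS1 with -0.56 is the nearest. Differences in fold change between these RNAs were not tested.

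**Figure D2:**
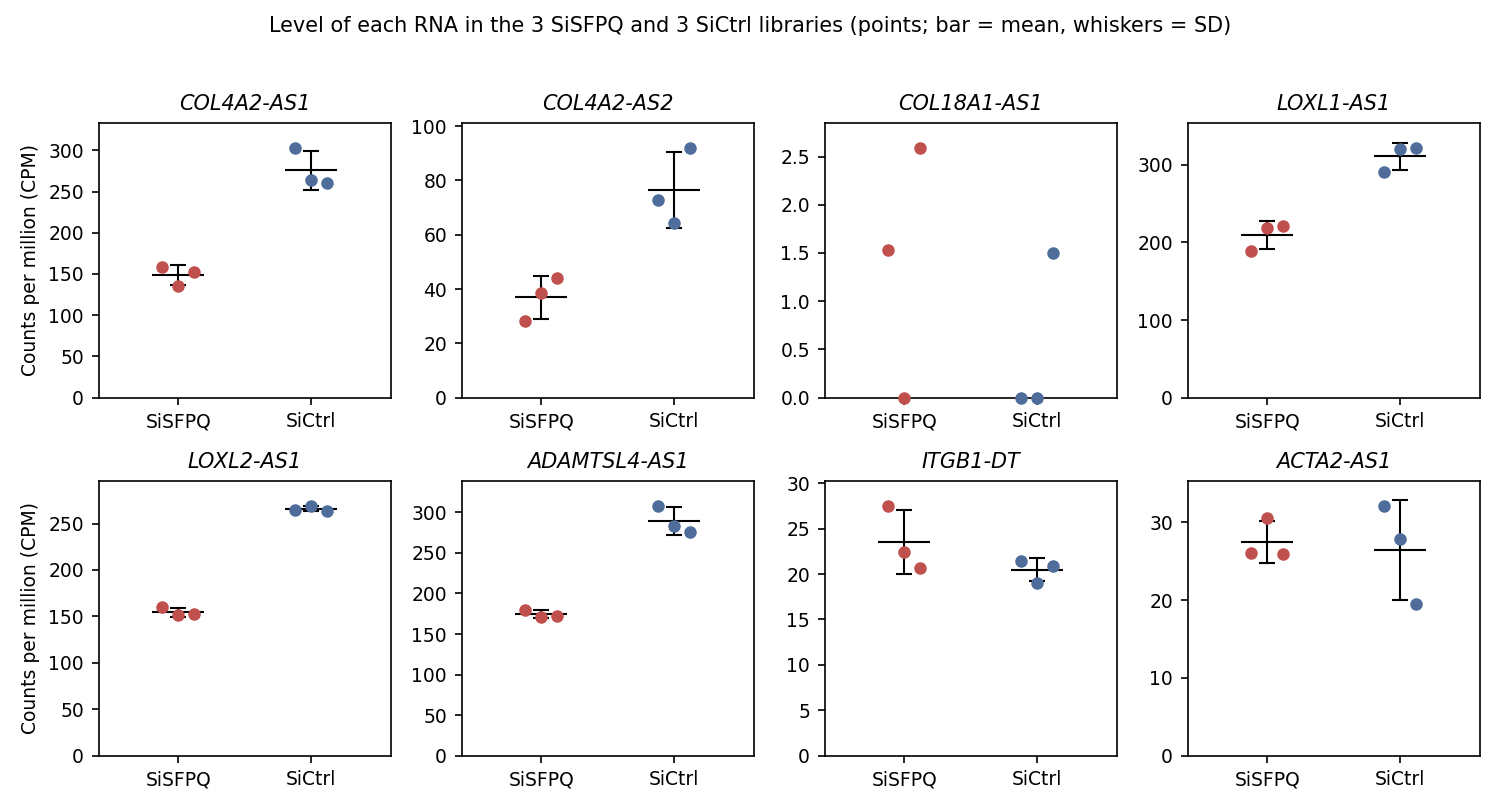
CPM of each RNA in the 3 SiSFPQ (left, red) and 3 SiCtrl (right, blue) libraries, with 1 point per library; the bar is the mean and the whiskers are the SD, left out for COL18A1-AS1 with its 0 to 4 counts per library. In COL4A2-AS1, COL4A2-AS2, LOXL1-AS1, LOXL2-AS1 and ADAMTSL4-AS1 the groups are apart, and in ITGB1-DT and ACTA2-AS1 they overlap.

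**Figure D3:**
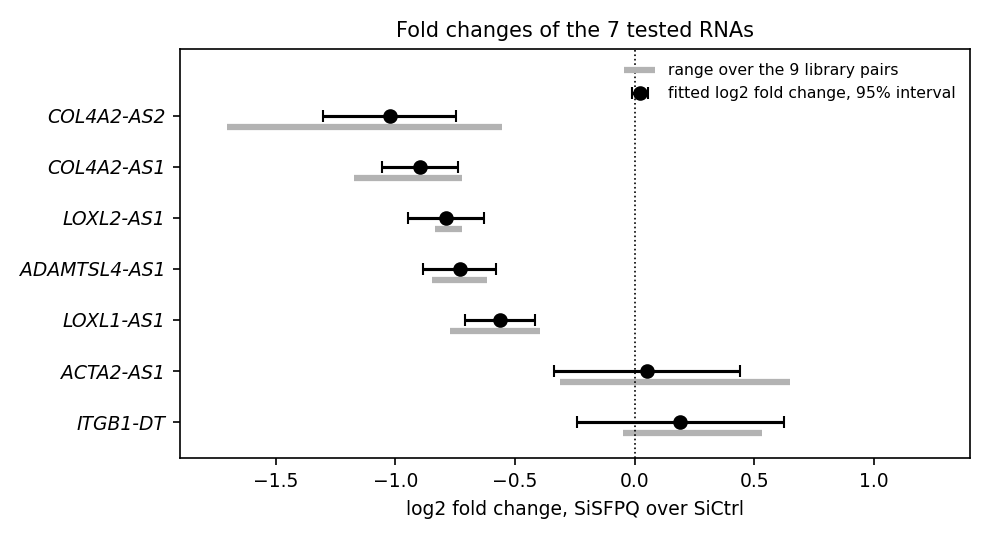
Log2 fold change of SiSFPQ over SiCtrl for the 7 tested RNAs, with the fitted value and its 95% interval (black) and the range over the 9 pairs of single libraries (grey). The 5 falls run from -1.02 to -0.56, and the intervals of ACTA2-AS1 and ITGB1-DT cover 0.

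The levels of the RNAs were then set side by side per listed length, where reads of the coding genes could be included. In SiSFPQ, COL4A2-AS1 stood at 275 ± 23.0 CPM per kb and ADAMTSL4-AS1 at 91.2 ± 2.60. They were followed by LOXL2-AS1 (31.9 ± 0.967), LOXL1-AS1 (31.4 ± 2.73), COL4A2-AS2 (24.3 ± 5.25), ACTA2-AS1 (8.62 ± 0.837) and ITGB1-DT (3.03 ± 0.455), all CPM per kb (SD, n = 3). In SiCtrl the level of COL4A2-AS1 was 511 ± 44.3 CPM per kb, that of ADAMTSL4-AS1 151 ± 8.83, LOXL2-AS1 55.0 ± 0.597, COL4A2-AS2 50.2 ± 9.26, LOXL1-AS1 46.6 ± 2.61, ACTA2-AS1 8.32 ± 2.02 and ITGB1-DT 2.63 ± 0.163. COL4A2-AS1 and ADAMTSL4-AS1 came first in both groups, and LOXL2-AS1, LOXL1-AS1 and COL4A2-AS2 formed a middle set. In SiSFPQ the ranges of LOXL2-AS1 and LOXL1-AS1 overlapped, as did those of COL4A2-AS2 and LOXL1-AS1; in SiCtrl the range of COL4A2-AS2 overlapped those of both, while LOXL2-AS1 and LOXL1-AS1 did not overlap.

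The row ENSG00000289010 spans COL4A2-AS1 on its own strand and is listed with 3596 bases. It held 21 counts over all 6 libraries and was not tested, against 660 counts of COL4A2-AS1 in SiSFPQ and 1161 in SiCtrl.

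**Figure D4:**
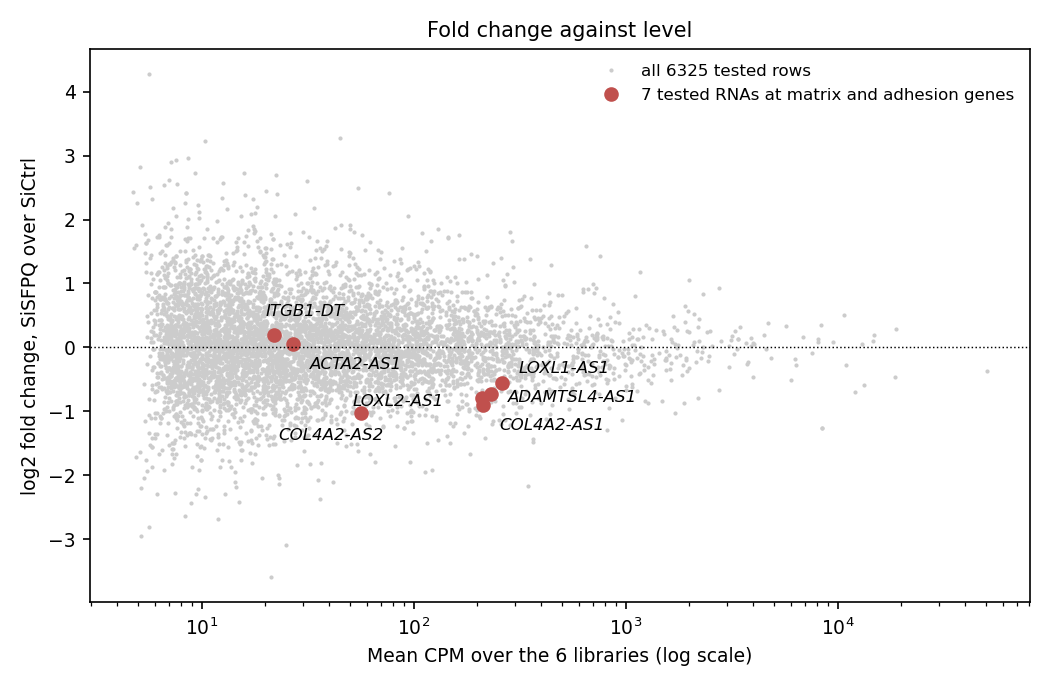
Log2 fold change of SiSFPQ over SiCtrl against mean CPM over the 6 libraries (log axis) for all 6325 tested rows (grey) and the 7 tested RNAs (red). The 2 RNAs that did not pass have the lowest CPM of the 7, a value not corrected for length, with log2 fold changes of 0.05 for ACTA2-AS1 and 0.19 for ITGB1-DT.

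The median log2 fold change of the 7 RNAs that passed the filter was -0.73, beside 0.01 over all tested rows. Because the RNAs were chosen with earlier results of these data known, this contrast and those below are descriptive only. None was tested. The other rows named as antisense had a median of 0.06, with 205 lower and 233 higher of 869 tested. The other rows named as divergent transcripts had a median of 0.23, with 41 lower and 109 higher of 300 tested. LOXL1-AS1, the smallest fall of the 5, had 16.3% of tested rows below it in fold change, and COL4A2-AS2, the largest, had 5.03%.

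For each tested RNA, the row with a gene symbol whose profile over the 6 libraries was nearest was found among 2070 rows of at least 5 CPM, by the root-mean-square difference of log2(CPM + 0.5) centred on each row's mean. LOXL2-AS1 was nearest to RPSAP52 (0.03), LOXL1-AS1 to STAG3L5P-PVRIG2P-PILRB (0.03) and ADAMTSL4-AS1 to BTNL12P (0.05). COL4A2-AS1 was nearest to FRG1HP (0.07), COL4A2-AS2 to UCKL1-AS1 (0.13), ITGB1-DT to PKD2L2-DT (0.04) and ACTA2-AS1 to LINC02244 (0.09). None of these rows is another of the 8 RNAs, which says little with 2070 candidates and 6 libraries. Nearness depends in part on a like fold change between groups, and no link between the rows was tested.

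A wider view came from all other rows of the table at matrix, adhesion and contractile genes. A list of 268 genes, drawn up with earlier results of these data known, gave 320 further rows. These carry a listed gene's name or overlap its span, and 136 had enough counts to test. The list was meant for coding genes but holds the pseudogenes COL6A4P1 and COL6A4P2. The row COL6A4P1 itself is among those not tested. Rows that overlap each other were counted separately. Of the 136 tested rows 52 were lower in SiSFPQ, 19 were higher and 65 did not pass, with a median log2 fold change of -0.26. By the same edgeR rule, 24.0% of all 6325 tested rows were lower and 24.5% higher. DESeq2, run on the 21006 rows with any count, called 39 of the 320 rows lower and 10 higher. Over all its rows it called 899 lower and 854 higher, so its counts are not comparable with the edgeR shares. Rows were also split by overlap with exons of a listed gene. For a row absent from the GENCODE release used, the whole listed span stood in for its exons, introns included. The split is therefore not one of exon overlap alone. Among rows that overlap by this rule, 43 of 98 were lower and 10 higher (median -0.29). Among the rest, 9 of 38 were lower and 9 higher (median -0.11). The difference between these classes was not tested.

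Rows at genes of matrix structure and cross-linking divided into 22 of 40 tested that were lower and 18 that did not pass, with a median of -0.42. The row at LOXL4, a further lysyl oxidase-like gene (ENSG00000230928), fell to 79.2 ± 3.94 CPM in SiSFPQ, against 175 ± 22.7 CPM in SiCtrl (SD, n = 3 each). Its log2 fold change was -1.14. ENSG00000286282, over the matricellular gene CCN3, changed by -1.63 and THBS1-AS1, at the thrombospondin 1 gene, by -0.85. The rows with the highest CPM, not corrected for length, were ENSG00000242590 at AGRN, the basement membrane proteoglycan agrin (-0.23), and ENSG00000302197 at LTBP3, which binds latent TGF-beta (0.09, edgeR, adjusted p = 0.27). FN1-DT, beside the fibronectin gene and named after its values were seen, had a log2 fold change of -0.51.

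At matrix remodelling genes 9 of 30 tested rows were lower and 5 higher, with a median of -0.23. ENSG00000267601, at the metalloproteinase inhibitor gene TIMP2, fell to 157 ± 9.20 CPM in SiSFPQ, against 361 ± 27.8 CPM in SiCtrl (SD, n = 3 each). Other rows at TIMP2, named after their values were seen, did not all go the same way. ENSG00000305265 rose to 13.0 CPM in SiSFPQ from 4.04 CPM in SiCtrl (log2 fold change 1.67, edgeR, adjusted p = 2.8e-05). ENSG00000267491 (-0.45) and ENSG00000305285 (-0.05) were not called. The log2 fold change was -0.58 for TGFB2-OT1, at the TGF-beta 2 gene, and 0.68 for ENSG00000310217, at the membrane protease gene ADAM15. TGFB2-AS1, at the same gene as TGFB2-OT1 and also named after its values were seen, rose by 0.32 (edgeR, adjusted p = 0.00041). MMP25-AS1, the row of this set with the highest CPM, was not called (-0.05, edgeR, adjusted p = 0.58).

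At adhesion genes 14 of 42 tested rows were lower and 8 higher, with a median of -0.15. NCAM1-AS1, at a neural cell adhesion gene, fell to 8.58 ± 2.12 CPM in SiSFPQ, against 37.8 ± 2.48 CPM in SiCtrl (SD, n = 3 each), a log2 fold change of -2.14. ENSG00000227279, at the N-cadherin gene CDH2, changed by -0.89 and NECTIN3-AS1 by -0.26. FAM131B-AS2, whose span overlaps the gene of the focal adhesion protein zyxin (ZYX), rose by 1.02. The integrin genes, set apart after their values were seen, had 24 rows other than ITGB1-DT, of which 13 were tested. Of these 5 were lower, 1 was higher and 7 did not pass, with a median log2 fold change of -0.47. The lowest value was that of ITGB2-AS1 (-1.49) and the highest that of EFCAB13-DT, whose span overlaps ITGB3 (0.31, edgeR, adjusted p = 0.022). PXN-AS1, at the paxillin gene, rose by 0.13 (edgeR, adjusted p = 0.015). That call was lost with DESeq2 (adjusted p = 0.052), in edgeR with no low-count filter (0.075), and on leaving out SiSFPQ replicate 3 (0.11), SiCtrl replicate 1 (0.13) or SiCtrl replicate 2 (0.063).

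At contractile genes, the set of ACTA2, 7 of 24 tested rows were lower and 6 higher, with a median of 0.00. Rows at tropomyosin genes went both ways: ENSG00000304541, at TPM1, changed by -0.87 and ENSG00000298790, at TPM4, by 1.80. ENSG00000298338, at the actin cross-linker gene ACTN4, changed by -1.13. At the intermediate filament gene VIM, VIM-AS1 had 8414 ± 103 CPM in SiSFPQ and 7684 ± 430 CPM in SiCtrl (SD, n = 3 each; log2 fold change 0.13, edgeR, adjusted p = 0.0035), a call lost without SiCtrl replicate 1 (adjusted p = 0.10). The neighbouring ENSG00000234961 was not called (0.09, edgeR, adjusted p = 0.053).

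**Figure D5:**
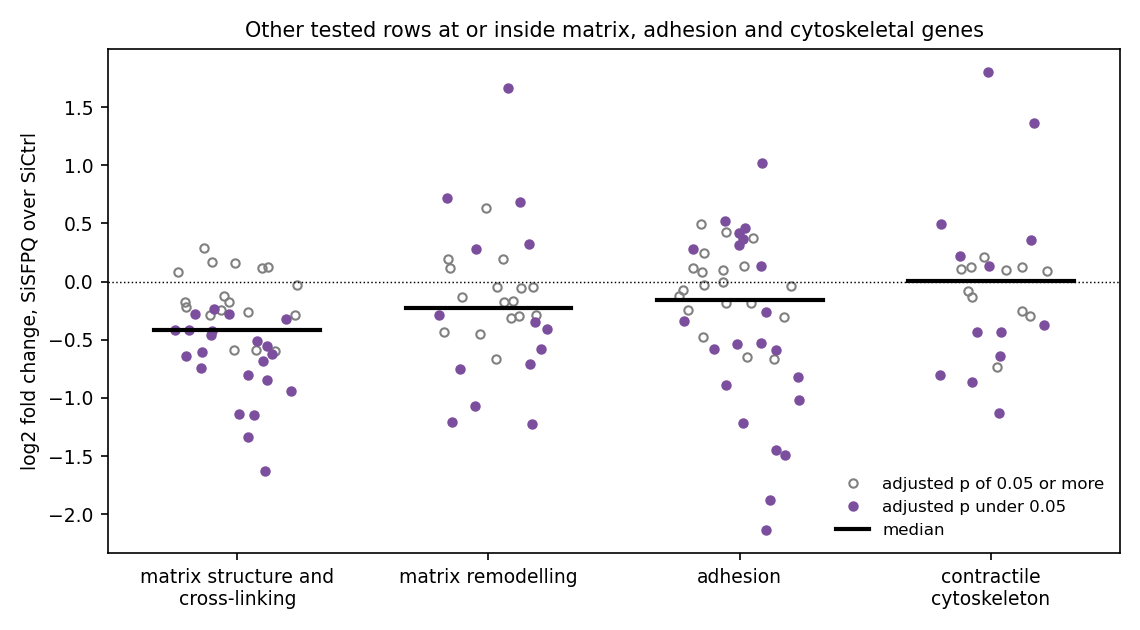
Log2 fold change of SiSFPQ over SiCtrl for the other tested rows at listed genes, with 1 point per row, grouped by gene list; filled points have an edgeR adjusted p under 0.05, and the line is the median. The medians are -0.42 for matrix structure and cross-linking, -0.23 for matrix remodelling, -0.15 for adhesion and 0.00 for the contractile cytoskeleton.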

How the data were processed

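Per the labels' protocols, TRIzol RNA was enriched for poly(A) and sequenced from stranded libraries. The deposited values are raw read counts per gene, unnormalised whole numbers, in 1 table with coordinates and lengths. The sources used here name no aligner, counter, annotation or build. All 13886 identifiers shared with GENCODE release 29 lay on the same chromosome and 13874 overlapped its positions, so positions were taken to be on GRCh38. Only 50 of those genes were protein coding, and the table's totals are not sequencing depth.

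The RNAs and gene lists were chosen with earlier results of these data known. Whole-table fits used edgeR 4.0.16 in R 4.3.3 (filterByExpr, TMM, robust quasi-likelihood, group as sole term, two-sided, Benjamini-Hochberg). Alternatives used DESeq2 1.42.0, limma 3.58.1, other scalings and filters, a fit blocked on replicate number, and 1 library left out at a time. Named list rows were, per list, the 3 with the smallest adjusted p and the 2 with the highest mean CPM. In simulated counts over 6066 rows, 96 of 100 changes of log2 1 and 53 of 100 of 0.5 were recovered, and 6 unchanged rows were called. Only those planted rows changed, all drawn above a minimum expected count, whereas 48.4% of real tested rows were called. These rates therefore need not hold for the data. Libraries of a group differed by more than sampling noise (chi-square over degrees of freedom 1.19 to 1.33), so none was counted as a duplicate.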

Additional observations from a re-analysis of the deposited data

How the results depend on the processing

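The 5 falls held under every alternative run (RLE, upper-quartile and plain scaling, no filter, a filter of at least 1 CPM in 3 libraries, DESeq2, limma-voom, the replicate block and each library left out), with log2 fold changes of -0.95 to -0.82 for COL4A2-AS1, -1.16 to -0.88 for COL4A2-AS2, -0.62 to -0.50 for LOXL1-AS1, -0.81 to -0.72 for LOXL2-AS1 and -0.78 to -0.67 for ADAMTSL4-AS1. With a library left out, ACTA2-AS1 ran from -0.13 to 0.20 and the difference in log2 ratio at COL4A2 from -0.068 to 0.27. DESeq2 called 854 rows higher and 899 lower over the whole table, against 1547 and 1516 with edgeR, and 10 rows of the matrix and adhesion lists higher and 39 lower, against 19 and 52; the cause was not tested. Deviations of same-numbered libraries correlated at -0.0047 to 0.010, and 2 of 6 libraries correlated best with their own number, so no pairing by number was seen. With 3 libraries per group, this check cannot exclude a shared culture or batch. The replicate block, with 1535 higher and 1515 lower, changed no call of the 7 tested RNAs. Of 322 values of list rows followed across settings, 311 kept direction and call. The rows followed were the named ones and ITGA6-AS1, an integrin gene row. EFCAB13-DT, TGFB2-AS1, ENSG00000305265, ENSG00000267491 and ENSG00000305285 were not followed. Besides the losses of PXN-AS1 and VIM-AS1, ENSG00000234961 gained a call with plain library totals (0.15), limma-voom (0.09) and without SiCtrl replicate 3 (0.10), ENSG00000302197 gained one with plain totals (0.15), and MMP25-AS1 turned to 0.012 with plain totals. Plain totals moved the median of all tested rows to 0.07. The filter of 1 CPM in 3 libraries kept 11651 rows, more than the default one. Low counts limit COL18A1-AS1, ITGB1-DT and ACTA2-AS1.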
